A study of Homo sapiens with 8 samples.

Results

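The genes described here encode the receptors for interferons, the Janus kinases bound to those receptors and SOCS1, their feedback inhibitor. They were IFNGR1, IFNGR2, IFNAR1, IFNAR2, IFNLR1, IL10RB, JAK1, JAK2, TYK2 and SOCS1, and every probe set that the platform annotation pairs with one of these symbols alone was taken. That gave 22 probe sets for 10 genes, of 45253 probe sets with 1 gene symbol for 18239 genes. The cells were NS-SV-AC, an immortalised line described in the labels as human salivary gland acinar cells. They were cultured with TNF-α at 20 ng/ml or with the control labelled BSA, the usual abbreviation of bovine serum albumin, and total RNA was taken at 2, 6, 12 and 24 h. Each combination of treatment and time had 1 array, so there were 4 arrays per treatment, 8 in all, and no replicate at any time. The labels do not say whether the 8 cultures were separate. p-values then measure only the spread between these arrays, which may be technical and also holds any change of the effect with time.

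Interferons signal through paired receptor chains. Interferon-γ binds IFNGR1 and recruits IFNGR2, which carry JAK1 and JAK2. The type I interferons use IFNAR1, bound to TYK2, and IFNAR2, bound to JAK1. The type III interferons use IFNLR1 together with IL10RB, a chain shared with the receptors of IL-10 and IL-22. The kinases phosphorylate STAT proteins, which bind GAS or ISRE elements in DNA and induce interferon-stimulated genes. SOCS1 is itself such a target, and it inhibits the kinases. Raised interferon-stimulated genes are a known feature of salivary glands in Sjögren's disease.

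Levels are log2 values made with RMA, and a difference is TNF-α minus BSA at the same time, so a difference of 1 is a 2-fold change. The TNF-α array at 24 h stood apart from the other 7. On it the GAPDH control probe sets for the 3′ and 5′ ends were 6.28 apart, against 0.20 to 0.37 on the others, and its mean correlation with the other arrays across genes was 0.925, against 0.968 to 0.978. Means of the members over the pairs are therefore given with and without the 24 h pair. The median difference over all 45253 probe sets was −0.01 at 2 h, 0.00 at 6 and 12 h and 0.13 at 24 h. Of 10 acinar markers measured, 0 lay above the upper quartile of the array on all 8 arrays and 9 lay below its median. Their summed level was 33.4 to 33.9 in BSA and 34.1 to 36.1 in TNF-α. Of 9 epithelial markers 2 (KRT18 and ITGA6) lay above the upper quartile on all 8 arrays, and of 7 fibroblast markers 3 (COL3A1, DCN and LUM) did. Below the median on all 8 arrays lay 5 of the epithelial and 2 of the fibroblast markers. Their summed levels were 44.6 to 48.5 in BSA and 43.4 to 48.3 in TNF-α for the epithelial list, and 41.3 to 42.2 and 41.4 to 44.6 for the fibroblast list. The lists differ in length, so these sums are not comparable between them. The median marker read 3.77 to 4.07 in BSA and 3.75 to 4.22 in TNF-α for the epithelial list. For the fibroblast list it read 6.04 to 6.33 and 5.48 to 5.96. The acinar label was thus not borne out by these defining markers, and the cells are called here by the name of the line. Of the 9 leukocyte markers and the 6 endothelial markers 0 lay above the upper quartile on all 8 arrays. In cultures measured in bulk, fewer cells of a type and less RNA per cell cannot be told apart.

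Of the 10 genes, 4 lie side by side on chromosome 21, in the order IFNAR2, IL10RB, IFNAR1 and IFNGR2 among protein-coding genes in the RefSeq table. The windows around the annotated starts of 4 members are shown because their transcripts took different courses with TNF-α. IFNGR2 was the only member past the threshold (adjusted p under 0.05, limma) over 2, 6 and 12 h, though other members were higher too. IL10RB lies near it and did not pass, IFNLR1 was lower in every pair, and SOCS1 is the inhibitor. The sequences are RefSeq's in build GRCh38.p14, from 250 bases before the start to 50 after it, read 5′ to 3′ on the gene's strand. IFNGR2 is at chr21:33403163-33403462 on the plus strand, IL10RB at chr21:33266117-33266416 on the plus strand, IFNLR1 at chr1:24187240-24187539 on the minus strand and SOCS1 at chr16:11256155-11256454 on the minus strand. Capitals mark matches to the motifs searched.
IFNGR2: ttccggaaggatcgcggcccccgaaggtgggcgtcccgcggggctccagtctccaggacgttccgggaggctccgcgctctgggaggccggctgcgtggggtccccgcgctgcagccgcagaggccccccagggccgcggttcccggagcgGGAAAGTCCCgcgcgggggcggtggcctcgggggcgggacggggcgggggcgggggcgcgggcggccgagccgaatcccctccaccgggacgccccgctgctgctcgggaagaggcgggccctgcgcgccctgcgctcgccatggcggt
IL10RB: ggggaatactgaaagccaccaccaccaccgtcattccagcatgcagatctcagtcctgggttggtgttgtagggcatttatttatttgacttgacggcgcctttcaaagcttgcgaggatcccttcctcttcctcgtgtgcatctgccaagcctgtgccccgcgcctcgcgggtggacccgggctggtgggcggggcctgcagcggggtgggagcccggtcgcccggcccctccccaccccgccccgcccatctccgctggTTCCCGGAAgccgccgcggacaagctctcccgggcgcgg
IFNLR1: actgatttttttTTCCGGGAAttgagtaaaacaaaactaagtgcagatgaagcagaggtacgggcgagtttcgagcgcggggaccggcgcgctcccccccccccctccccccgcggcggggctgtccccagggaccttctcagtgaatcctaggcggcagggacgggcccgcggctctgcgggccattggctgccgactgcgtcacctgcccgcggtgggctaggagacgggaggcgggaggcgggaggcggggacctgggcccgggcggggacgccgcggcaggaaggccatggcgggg
SOCS1: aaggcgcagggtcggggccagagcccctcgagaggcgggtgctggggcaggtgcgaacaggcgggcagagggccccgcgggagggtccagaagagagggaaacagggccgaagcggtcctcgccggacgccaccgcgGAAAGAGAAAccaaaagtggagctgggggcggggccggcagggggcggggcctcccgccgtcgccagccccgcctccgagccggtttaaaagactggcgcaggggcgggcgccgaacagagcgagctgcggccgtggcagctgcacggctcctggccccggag

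Motifs were searched on both strands: GAS as TTCNNNGAA, the ISRE core as GAAA, any 2 bases and GAAA, and the NF-κB consensus. The window of IFNGR2 held an NF-κB match, GGAAAGTCCC as printed, whose first base lies at −99 from the start. The window of SOCS1 held an ISRE core, GAAAGAGAAA, beginning at −113. IFNLR1 held a GAS match, TTCCGGGAA, at −238, and IL10RB held TTCCCGGAA at 12 bases after the start. RefSeq lists several starts for some genes, and 16 windows covered 9 of the 10 genes. Of these 16, 2 held the NF-κB consensus (5.9% of all 34943 windows of 300 bases do), 2 held GAS (7.66% of all) and 1 held the ISRE core (3.57% of all). The second NF-κB match lay 22 bases after a start of IFNGR1. Each of the 5 matches lay in a window of its own. The 4 windows printed all hold a match. Those of IFNAR1, JAK1, JAK2 and TYK2 held no match and are not printed, so the printed windows are not typical of the members. A match is a description of these letters and not evidence that a factor binds there.

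The interferon-γ receptor held the largest mean difference of the 22 probe sets over 2, 6 and 12 h. IFNGR2, the chain that brings JAK2 to the complex, read 7.64, 7.64, 7.57 and 7.72 in BSA at 2, 6, 12 and 24 h, and 8.86, 9.42, 9.14 and 6.87 in TNF-α. The BSA arrays were level, the TNF-α arrays of 2, 6 and 12 h lay above all of them, and the TNF-α array at 24 h lay below all of them. The differences were 1.22, 1.78, 1.57 and −0.85. Over 2, 6 and 12 h IFNGR2 rose by 1.52 ± 0.12 (SE, 3 pairs), a 2.88-fold change, with adjusted p = 0.0241 by limma. Over the 4 times it was 0.93 ± 0.48 higher, in 3 of 4 pairs, with adjusted p = 0.688.

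The call for IFNGR2 was the 1 call among the 22 probe sets over 2, 6 and 12 h, where limma called 0.217% of all probe sets (0.186% higher and 0.0309% lower). The fit had 2 residual degrees of freedom, and the call was lost without the 6 h or the 12 h pair. Without the 2 h pair IFNGR2 was 1.68 higher (adjusted p = 0.000643), without the 6 h pair 1.40 (0.152) and without the 12 h pair 1.502 (0.0774). Without the 2 h pair limma called 10 of the 22 probe sets, all higher, and 3.59% of all. These were IFNGR2, both of IFNGR1, the 4 of IFNAR1, 2 of the 3 of IFNAR2 and JAK1 11717685_at, with 1 residual degree of freedom. Over the 4 times limma called 0 of the 22 probe sets and 0.00442% of all, while 5 of the 22 had an unadjusted p under 0.05, as did 6.49% of all.

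IFNGR1, the chain that binds interferon-γ, has 2 probe sets here. Probe set 11729406_a_at read 8.28, 7.80, 8.11 and 8.64 in BSA and 8.59, 8.96, 9.03 and 8.43 in TNF-α. Probe set 11748152_a_at read 5.67, 5.11, 5.15 and 6.23 in BSA and 6.01, 6.36, 6.48 and 4.02 in TNF-α. On both, the TNF-α arrays of 2, 6 and 12 h lay above the BSA arrays of those times. The differences of the first were 0.31, 1.16, 0.92 and −0.22, and those of the second 0.34, 1.25, 1.33 and −2.21. Over 2, 6 and 12 h these averaged 0.79 ± 0.16 and 0.97 ± 0.20 (SE, 3 pairs) and neither passed (adjusted p = 0.213 for both, limma). With the 24 h pair they averaged 0.54 ± 0.25 and 0.18 ± 0.65 (adjusted p = 0.688 and 0.921, limma). In BSA both probe sets read lowest at 6 h, at −0.48 and −0.57 relative to the 2 h array, so the 6 h differences hold a lower control value too.

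**Figure D1:**
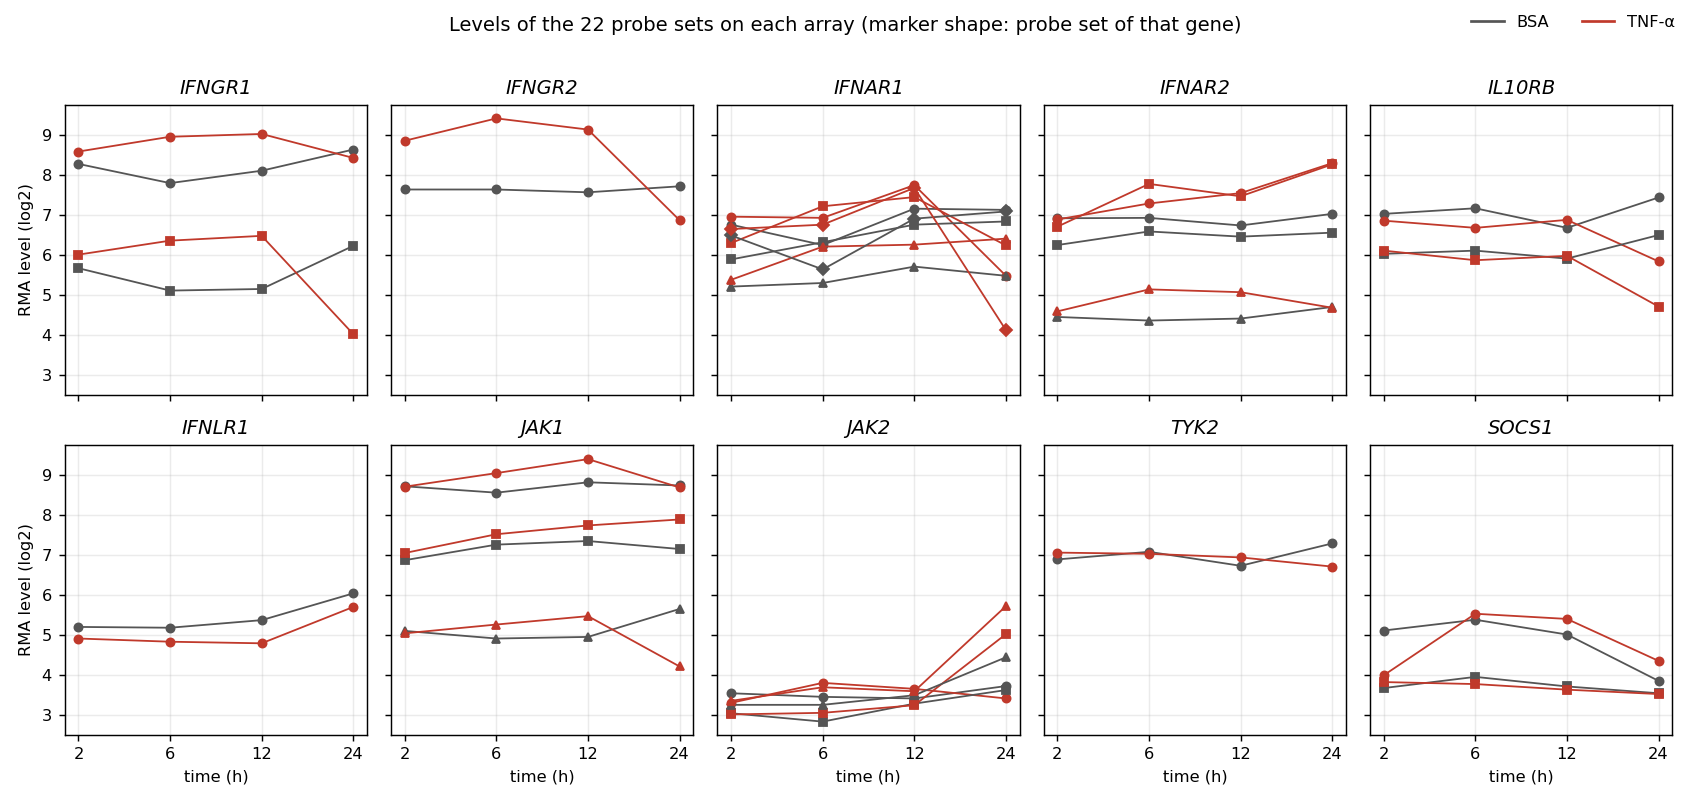
RMA level (log2, vertical) against time (2, 6, 12 and 24 h, evenly spaced) for the 22 probe sets, in a panel per gene. Each point is 1 array, grey for BSA and red for TNF-α, and marker shapes separate the probe sets of a gene, whose heights are not comparable with each other. IFNGR2 in TNF-α sits between 8.86 and 9.42 at 2, 6 and 12 h, above the BSA values of 7.57 to 7.72, and at 6.87 at 24 h.

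The chains of the type I receptor were higher with TNF-α at 6 and 12 h on each of their 7 probe sets, without passing the test. IFNAR2, the chain that binds type I interferon with high affinity, was measured by 3. Probe set 11724686_x_at read 6.25, 6.59, 6.46 and 6.56 in BSA and 6.71, 7.78, 7.47 and 8.27 in TNF-α, and was the only 1 of the 22 on which every TNF-α array lay above every BSA array, as on 3.1% of all probe sets. The reverse held for 0 of the 22 and 1.14% of all. Its differences were 0.46, 1.19, 1.02 and 1.72, with a mean of 1.10 ± 0.21 (SE) over 4 pairs (adjusted p = 0.688) and 0.89 ± 0.15 over 2, 6 and 12 h (adjusted p = 0.148, limma).

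The other probe sets of IFNAR2 gave smaller values. On 11724685_x_at the differences were −0.03, 0.36, 0.81 and 1.28, and on 11749121_a_at 0.13, 0.78, 0.66 and −0.02. The latter read 4.36 to 4.70 in BSA and 4.59 to 5.14 in TNF-α. The 3 thus pointed the same way at 6 and 12 h and apart at 24 h. Their means were 0.38 ± 0.16 and 0.53 ± 0.14 over 2, 6 and 12 h (adjusted p = 0.405 and 0.268), and 0.61 ± 0.23 and 0.39 ± 0.17 over the 4 times (adjusted p = 0.688 for both, limma). An x in a probe set's name marks probes that can also bind other transcripts.

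IFNAR1, the chain bound to TYK2, was measured by 4 probe sets. Probe set 11723424_at read 5.89, 6.32, 6.76 and 6.84 in BSA and 6.30, 7.22, 7.45 and 6.24 in TNF-α, and 11723425_at read 5.21, 5.30, 5.71 and 5.48 in BSA and 5.38, 6.21, 6.26 and 6.41 in TNF-α. In both arms these levels were higher at 12 h than at 2 h. Probe set 11723423_x_at, the brightest, read 6.76, 6.25, 7.16 and 7.13 in BSA and 6.96, 6.93, 7.75 and 5.48 in TNF-α, and 11748615_a_at read 6.49, 5.64, 6.91 and 7.09 in BSA and 6.65, 6.76, 7.68 and 4.12 in TNF-α. On these 2 the 6 h difference came with a lower BSA array (−0.51 and −0.85 relative to 2 h), while TNF-α stood at −0.03 and 0.11 relative to 2 h. The groups of 2, 6 and 12 h overlapped on all 4 probe sets. All 4 were higher in each of the 3 pairs of 2, 6 and 12 h, by 0.16 to 0.41 at 2 h, 0.68 to 1.11 at 6 h and 0.55 to 0.77 at 12 h. Their means over these times were 0.49 to 0.68, with adjusted p from 0.143 to 0.275 by limma. With the 24 h pair their means ran from −0.24 to 0.64, with adjusted p from 0.688 to 0.970. At 24 h they ran from −2.98 on 11748615_a_at to 0.93 on 11723425_at.

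The chains of the type III receptor did not share these higher levels. IFNLR1, the chain specific to interferon-λ, read 5.20, 5.18, 5.37 and 6.04 in BSA and 4.91, 4.83, 4.79 and 5.70 in TNF-α on its single probe set. It was lower in 4 of 4 pairs, by −0.28, −0.35, −0.58 and −0.34, and the groups of 2, 6 and 12 h did not overlap. Every TNF-α array lay below every BSA array of those times on 5.54% of all probe sets, and 9.42% were lower in all 4 pairs. The mean was −0.40 ± 0.09 over 2, 6 and 12 h (adjusted p = 0.223) and −0.39 ± 0.08 over 4 pairs (adjusted p = 0.688, limma), so IFNLR1 did not pass. In both arms it was higher at 24 h than at 2 h, by 0.85 in BSA and 0.79 in TNF-α, which is more than its difference between the treatments. After quantile normalisation again its 24 h difference was −0.02.

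IL10RB, the shared second chain, lies between IFNAR2 and IFNAR1 on chromosome 21. Probe set 11727467_x_at read 7.03, 7.17, 6.68 and 7.44 in BSA and 6.86, 6.68, 6.88 and 5.84 in TNF-α. Probe set 11753111_x_at read 6.03, 6.11, 5.91 and 6.50 in BSA and 6.11, 5.87, 5.98 and 4.71 in TNF-α. On both, the groups of 2, 6 and 12 h overlapped. The means over 2, 6 and 12 h were −0.15 ± 0.13 and −0.03 ± 0.09 (adjusted p = 0.695 and 0.931, limma). With the 24 h pair, where both were at −1.61 and −1.80, the means were −0.52 ± 0.31 and −0.47 ± 0.35 (adjusted p = 0.688 and 0.689, limma).

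**Figure D2:**
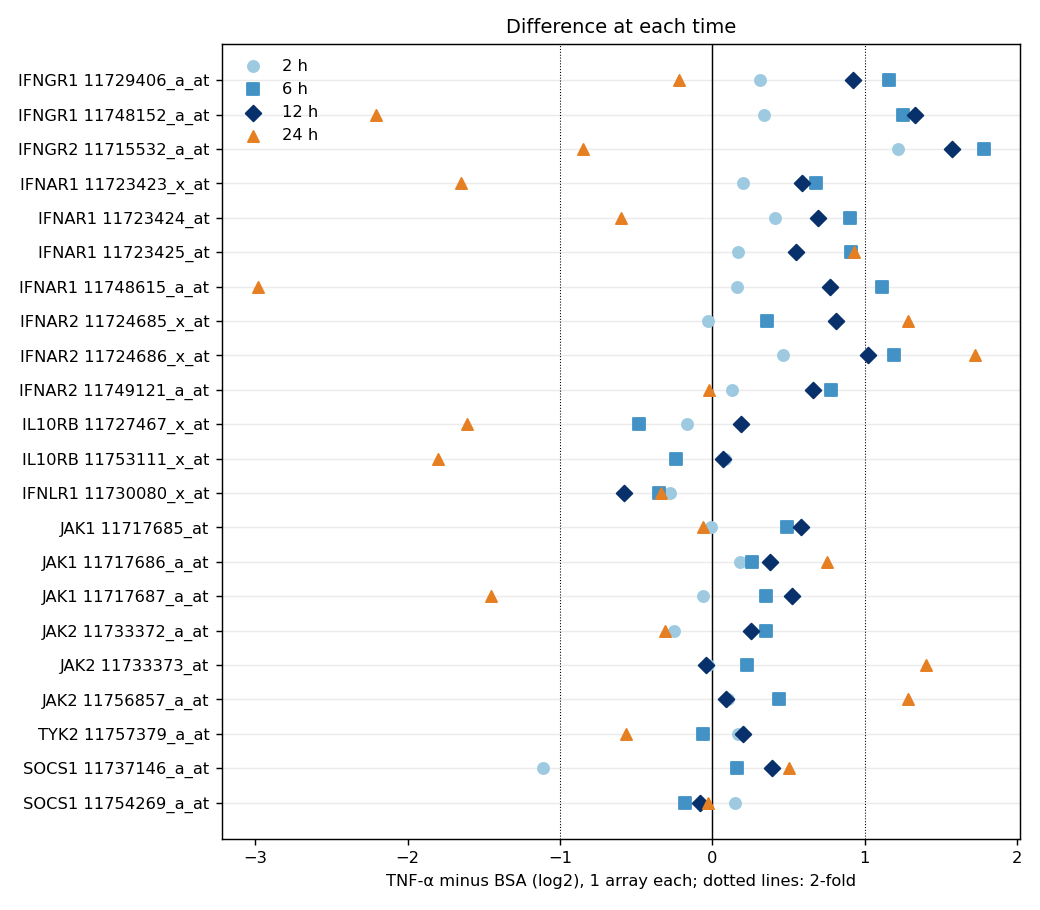
TNF-α minus BSA (log2, horizontal) for each of the 22 probe sets (vertical, gene and probe set) at 2, 6, 12 and 24 h, from 1 array per treatment, with dotted lines at a 2-fold change. The 7 probe sets of IFNAR1 and IFNAR2 lie right of 0 at 6 and 12 h, IFNLR1 lies left of 0 at all times, and the 24 h triangles spread from −2.98 to 1.72.

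Among the kinases, JAK1, which serves all 3 classes of receptor, was higher at 6 and 12 h on each of its 3 probe sets and near its control at 2 h. Probe set 11717685_at read 8.72, 8.56, 8.82 and 8.74 in BSA and 8.71, 9.05, 9.40 and 8.69 in TNF-α. Its differences were −0.01, 0.49, 0.58 and −0.06, with a mean of 0.35 ± 0.13 over 2, 6 and 12 h (adjusted p = 0.360, limma). Probe sets 11717686_a_at and 11717687_a_at both averaged 0.27 over those times, with SE of 0.08 and 0.12, and neither passed. On all 3 the groups of 2, 6 and 12 h overlapped, and at 24 h the 3 probe sets gave −0.06, 0.75 and −1.45. With the 24 h pair they averaged 0.25 ± 0.14, 0.39 ± 0.12 and −0.16 ± 0.35, with adjusted p from 0.688 to 0.867 by limma.

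JAK2, the kinase bound to IFNGR2, read low. In BSA its 3 probe sets lay between 2.83 and 4.44, and 11733373_at was under the lower quartile of all probe sets on 6 of 8 arrays, so exact sizes are uncertain. Probe set 11756857_a_at read 3.25, 3.25, 3.49 and 4.44 in BSA and 3.35, 3.69, 3.59 and 5.72 in TNF-α. Both arms were highest at 24 h, with the BSA array 1.19 above that of 2 h. Over 2, 6 and 12 h the 3 probe sets averaged 0.05 to 0.21 higher, with adjusted p from 0.436 to 0.861 by limma. At 24 h 2 of them were higher by 1.28 and 1.40 and the third, 11733372_a_at, was −0.31. The means over the 4 times were 0.01 to 0.48, with adjusted p from 0.688 to 0.981 by limma.

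TYK2, the kinase of IFNAR1 and IL10RB, read 6.89, 7.08, 6.73 and 7.29 in BSA and 7.06, 7.03, 6.94 and 6.71 in TNF-α. The arrays of the treatments overlapped, and the differences were 0.17, −0.06, 0.20 and −0.57. The mean over 2, 6 and 12 h was 0.10 ± 0.08 (adjusted p = 0.659) and that over the 4 times −0.07 ± 0.15 (adjusted p = 0.873, limma).

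The 2 probe sets of SOCS1, the inhibitor, differed in sign at each of the 4 times. Probe set 11737146_a_at read 5.11, 5.38, 5.01 and 3.85 in BSA and 3.99, 5.53, 5.40 and 4.35 in TNF-α. The array of TNF-α at 2 h was lower than its control by −1.11, the lowest difference of the 22 probe sets at that time, and the later differences were 0.16, 0.39 and 0.50. At 2 h 0.0309% of all probe sets were at least 2-fold lower. Probe set 11754269_a_at read 3.54 to 3.95 in BSA and 3.52 to 3.82 in TNF-α, and its differences were 0.15, −0.18, −0.08 and −0.03. The lower value at 2 h is thus from 1 array and 1 of 2 probe sets. Over 2, 6 and 12 h the means were −0.19 ± 0.28 and −0.04 ± 0.09 (adjusted p = 0.842 and 0.912, limma), and without the 2 h pair the first was 0.27 (adjusted p = 0.299). With the 24 h pair they were −0.02 ± 0.30 and −0.03 ± 0.08 (adjusted p = 0.985 and 0.881, limma).

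Set side by side over 2, 6 and 12 h, 11 of the 22 probe sets were higher in each of the 3 pairs, as were 16% of all probe sets, and 1 was lower in each, as were 19.4% of all. Over all 4 pairs 4 were higher in each, as were 11.4% of all. The TNF-α and BSA arrays of those times did not overlap on 6 probe sets. TNF-α was above on 5 (6.1% of all) and below on 1 (5.54% of all). The 5 were both probe sets of IFNGR1, that of IFNGR2 and 2 of the 3 of IFNAR2. An unadjusted p under 0.05 was found for 12 of the 22, against 12.6% of all probe sets. The members share genes and, on chromosome 21, a neighbourhood, so they are not independent of each other.

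**Figure D3:**
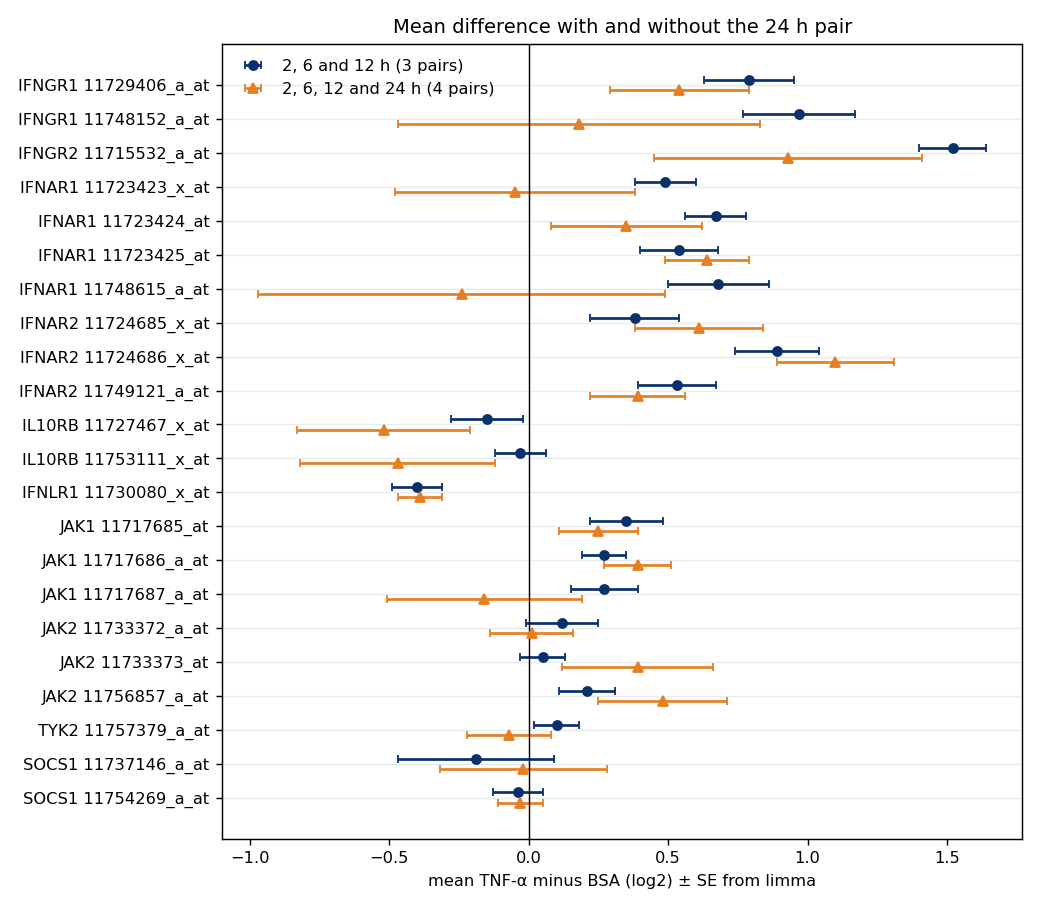
Mean TNF-α minus BSA (log2, horizontal) with its SE from limma for each of the 22 probe sets (vertical), over 2, 6 and 12 h (blue circles, 3 pairs) and over all 4 times (orange triangles, 4 pairs). IFNGR2 stands at 1.52 ± 0.12 without the 24 h pair and at 0.93 ± 0.48 with it, and the error bars of IFNAR1 11748615_a_at widen from 0.18 to 0.73.

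By time, the median of the 22 differences was 0.14, 0.40, 0.54 and −0.26 at 2, 6, 12 and 24 h. At 2 h 1 probe set was at least 2-fold higher (IFNGR2) and 0.389% of all were. At 6 h 5 were (both of IFNGR1, IFNGR2, 1 of IFNAR1 and 1 of IFNAR2), with 1.18% of all, and at 12 h 3 were (IFNGR1, IFNGR2 and IFNAR2, 1 probe set each), with 1.11% of all. At 6 and 12 h 0 of the 22 were at least 2-fold lower, with 0.267% and 0.614% of all. At 24 h 4 were at least 2-fold higher (2 of IFNAR2 and 2 of JAK2), with 4.64% of all, and 6 at least 2-fold lower (1 of IFNGR1, 2 of IFNAR1, 2 of IL10RB and 1 of JAK1), with 10% of all. The number of probe sets above their control was 14, 17 and 19 of 22 at 2, 6 and 12 h, also after median centring or repeated quantile normalisation, and 7 of 22 at 24 h (8 after repeated quantile normalisation). The array medians were 4.33 to 4.36, so centring could change little. The share of all probe sets above their control was not counted. The 22 probe sets come from 10 genes, so these counts are not of 22 separate transcripts.

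Dependence on time was tested as the product of treatment and log2 of the hours, with 4 residual degrees of freedom. This fit has no time factor, so the arrays of a time were not paired. Its residual spread also holds changes in either arm that are not linear in log2 hours. Limma called 0 of the 22 probe sets and 0% of all, with an unadjusted p under 0.05 for 1 of the 22 and 4.17% of all. For IFNGR2 the slope was −0.48 ± 0.36 per doubling of time with the 24 h pair (adjusted p = 0.780) and 0.15 without it (adjusted p = 1). The sign of this slope thus depended on the 24 h pair.

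At 24 h the probe sets of 1 gene often disagreed. The range of the differences over a gene's probe sets was 0.25, 0.44, 0.22 and 3.91 for IFNAR1 at 2, 6, 12 and 24 h, 0.24, 0.23, 0.19 and 2.19 for JAK1, and 0.03, 0.10, 0.41 and 1.99 for IFNGR1. For IFNAR2 it was 0.49, 0.83, 0.36 and 1.74 and for JAK2 0.35, 0.22, 0.29 and 1.71. Over the 11822 genes with more than 1 probe set the median range was 0.18, 0.24, 0.24 and 0.63, and the upper quartile was 0.28, 0.39, 0.4 and 1.37. These 5 genes therefore lay above the upper quartile at 24 h, while IL10RB (0.19) and SOCS1 (0.52) lay below the median. Disagreement was not confined to 24 h. At 2 h SOCS1 (1.26), IFNAR2 and JAK2 lay above the upper quartile of that time. At 6 h IFNAR1 and IFNAR2 did, and at 12 h IFNGR1 and SOCS1 (0.47). A range can be wider for a gene with more probe sets, and their number was not matched. The 24 h TNF-α array is that with the GAPDH gap of 6.28 and an ACTB gap of 6.88, against 2.59 to 3.47 on the others. The part of RNA quality in the 24 h values was not tested, and no direction for a receptor at 24 h is drawn from them.

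**Figure D4:**
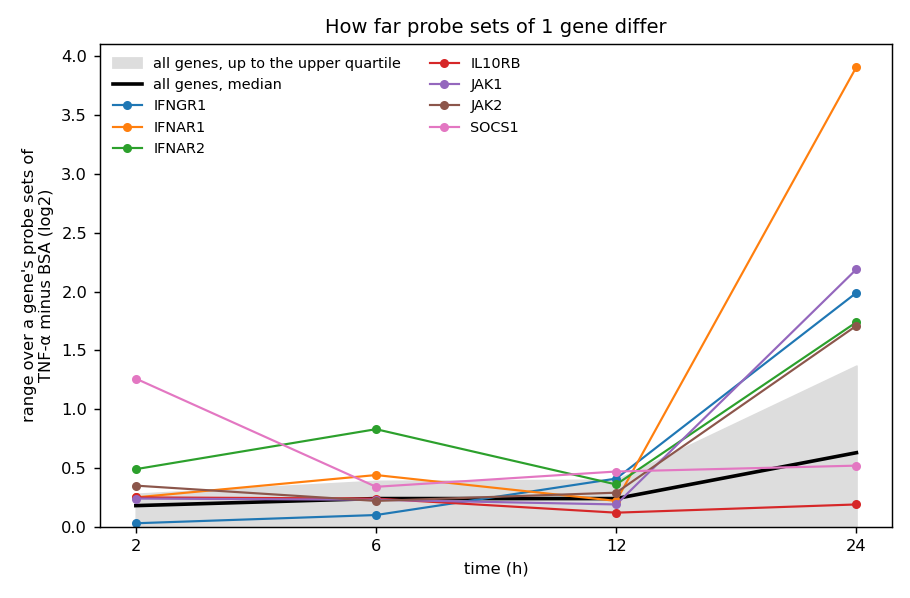
Range of TNF-α minus BSA over the probe sets of a gene (log2, vertical) at each time for the 7 member genes with more than 1 probe set, with the median of all 11822 such genes (black) and the span up to their upper quartile (grey). The member genes lie at 0.83 or below at 6 and 12 h, SOCS1 stands at 1.26 at 2 h, and IFNAR1 reaches 3.91 at 24 h.

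BSA levels also differed between times. In BSA 20 of the 22 probe sets read higher at 24 h than at 2 h, most of all JAK2 11756857_a_at by 1.19, IFNAR1 11723424_at by 0.94 and IFNLR1 by 0.85. The 2 that read lower were those of SOCS1, by −1.26 on 11737146_a_at and −0.13 on 11754269_a_at. IFNGR2 moved by 0.08. Each BSA time is 1 array, so these values have no test. The share of all probe sets that read higher in BSA at 24 h than at 2 h was not counted. The upper quartile of all probe sets was 6.54 on the 24 h array and 6.42 on the 2 h array. The count of 20 of 22 is therefore not shown to be particular to these genes.

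Genes around the receptors were counted from lists, with the brightest probe set of each gene. Limma called 0.367% of the 18239 genes over 2, 6 and 12 h, 0.318% higher and 0.0493% lower. It called 0.0164% of them and 0 genes of these 7 lists over the 4 times, where 1 to 13 genes of a list had an unadjusted p under 0.05, as did 7.51% of all genes. Of the 6 genes measured among STAT proteins and IRF9, 0 passed (5 had an unadjusted p under 0.05, as did 14.0% of all genes). IRF9, the DNA-binding partner of the STATs in type I signalling, was −0.13, 2.92, 3.17 and 3.85, and STAT5A was 1.01, 2.22, 2.08 and 0.75. STAT3, the main STAT of IL-6 family receptors, was −0.04, 0.66, 1.18 and −0.28, and STAT6, that of the IL-4 receptor, was 0.19, 0.42, 1.09 and 0.37.

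The medians of the other inhibitors lay near those of all genes at 2, 6 and 12 h, while some genes differed more. Of the 7 genes of other SOCS proteins and CISH 0 passed over 2, 6 and 12 h (2 at an unadjusted p under 0.05), with medians of −0.10, −0.07, −0.05 and 0.21. SOCS2, which restrains growth hormone signalling, was −0.27, −1.22, −0.84 and 0.15. SOCS4, SOCS5 and SOCS6 averaged −0.19, −0.29 and 0.27. Of 11 further inhibitors 0 passed (4 at an unadjusted p under 0.05), with medians of 0.08, 0.01, 0.11 and 0.42. At 12 h 2 of the 11 were at least 2-fold higher, as were 235 of all 18239 genes. At 24 h 4 were at least 2-fold higher and 1 at least 2-fold lower, with 1113 and 1216 of all genes. USP18, which displaces JAK1 from IFNAR2, was −0.23, 0.81, 1.44 and 1.71, and ISG15, a ubiquitin-like protein that stabilises USP18, was 0.18, 0.74, 1.56 and 3.13. PTPN2, a phosphatase of JAK1, was 0.08, 0.62, 0.60 and 1.24, and PIAS1, a SUMO ligase, was −0.14, −0.45, −0.19 and 0.96.

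Transcripts of interferons themselves were near the background. Of 17 measured, 15 lay under the lower quartile on all 8 arrays and 0 passed (2 at an unadjusted p under 0.05), with medians of 0.07, 0.07, 0.06 and 0.20. IFNB1 read 3.02 to 3.13 in BSA and 3.19 to 3.24 in TNF-α, and IFNG 3.04 to 3.10 and 3.22 to 3.30. IFNA14 averaged 0.22 higher over 2, 6 and 12 h and IFNA21 0.11. Low interferon transcripts on an array set no limit on the protein in the medium.

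Other receptor chains that use these kinases had medians of 0.01, 0.12, 0.17 and 0.36, and 0 of 19 passed (5 at an unadjusted p under 0.05). IL27RA averaged 0.65 ± 0.14 over 2, 6 and 12 h, IL4R 0.53 ± 0.13 and IL6ST, the shared gp130 chain, 0.43 ± 0.10. GHR, the growth hormone receptor, was −0.38, −0.91, −2.14 and −0.33. In a list of class I antigen presentation and GAS targets of interferon-γ, 2 of 13 genes rose over 2, 6 and 12 h (9 at an unadjusted p under 0.05), where 0.318% of all genes were called higher (IRF1 with adjusted p = 0.00305 and ICAM1 with 0.0464, limma). Both are also known targets of NF-κB. GBP1, GBP2 and CXCL10 of that list averaged 4.26 ± 0.65, 2.54 ± 0.34 and 5.33 ± 0.93 and did not pass. The list's medians were 0.06, 0.64, 1.35 and 1.0. Of 16 targets of type I interferon 0 passed (11 at an unadjusted p under 0.05), with medians of 0.16, 1.02, 1.82 and 2.81. MX1, XAF1, RIGI and IFIH1 were 0.05, −0.05, 0.57 and 0.15 at 2 h and 3.68, 3.06, 3.06 and 3.50 at 12 h.

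**Figure D5:**
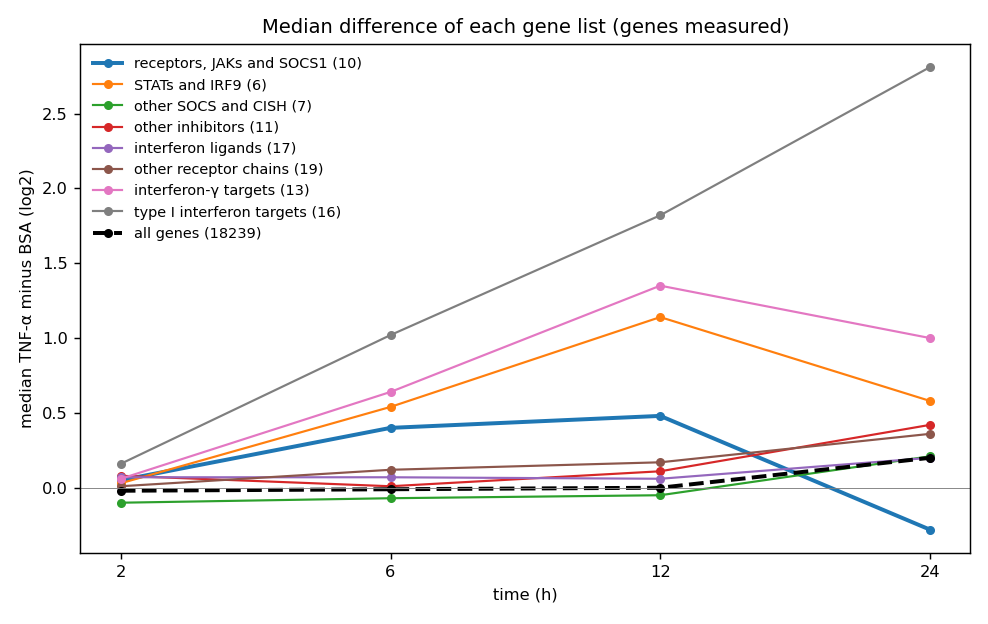
Median TNF-α minus BSA (log2, vertical) at 2, 6, 12 and 24 h for the 10 genes and for 7 lists of related genes, with the number of genes measured, and for all genes (dashed). Targets of type I interferon reach 1.82 at 12 h and 2.81 at 24 h, the 10 genes 0.48 and −0.28, and the interferon ligands stay between 0.06 and 0.20.

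Genes whose levels followed those of a member most closely were sought over 7 arrays, leaving out TNF-α at 24 h, among 3152 genes with a range of at least 1. Each is given with r over these 7 arrays and then over all 8. For IFNGR1 they were CYLD (0.984 and 0.783), ALPK2 (0.977 and 0.647) and OPTN (0.963 and 0.721). IFNGR2 was followed by NFKBIE (0.998 and 0.810), KLF4 (0.994 and 0.506) and VCAM1 (0.994 and 0.475). Beside IFNAR1 stood ELK3 (0.971 and −0.262), ATP2C1 (0.957 and 0.891) and ITGAV (0.956 and 0.033). For IFNAR2 they were HLA-B (0.987 and 0.602), UBE2L6 (0.972 and 0.984) and HDAC9 (0.971 and 0.973). IFNLR1 was followed by SSX2IP (0.993 and 0.989), CREBBP (0.985 and 0.955) and PCDH18 (0.984 and 0.933). Beside IL10RB stood FBXO32 (0.943 and 0.079), ZNHIT3 (0.932 and 0.651) and HSBP1L1 (0.926 and −0.224). For JAK1 they were FAS (0.990 and 0.496), FGD6 (0.989 and 0.690) and IFIH1 (0.988 and 0.554). JAK2 was followed by GTF2H1 (0.983 and 0.986), USP31 (0.981 and 0.688) and NOL10 (0.979 and −0.555). Beside TYK2 stood SHMT2 (0.923 and 0.926), C8orf33 (0.922 and 0.925) and FHL2 (0.920 and 0.308). For SOCS1 they were MYD88 (0.927 and 0.897), S1PR5 (0.919 and 0.925) and CCND3 (0.904 and 0.902). With the eighth array r was below 0 for ELK3, HSBP1L1 and NOL10. For JAK2 the BSA array at 24 h read 4.44 and the others of the 7 read 3.25 to 3.69. For IFNLR1 that array read 6.04 and the others 4.79 to 5.37. The r of these 2 members can thus rest largely on 1 array. The 7 points share treatments and times, and the highest r of 3152 genes were taken, so these are descriptions.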

How the data were processed

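The deposited values are log2 expression per probe set, 1 column per array. Per the labels' protocols, TRIzol RNA (10 ng) was biotin-labelled with a 3′ IVT kit. The values were made with RMA, per the submitters' processing notes; neither its version nor a filter is stated there. RMA equalises probe distributions between arrays, so differences are relative. Arrays give no read depth, and their number limits the precision.

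Probe sets with several symbols (1327), with none listed (2713) and array controls (93) were left out. limma 3.58.1 in R 4.3.3 (lmFit, eBayes, two-sided) was fitted to all 45253 remaining probe sets, and to the brightest probe set of each gene for the lists, with treatment and time as factors. Residual degrees of freedom were 3 over the 4 times and 2 over 2, 6 and 12 h. The fit of dependence on time used log2 hours as a number in place of the time factor, with 4 residual degrees of freedom. p-values were adjusted by Benjamini-Hochberg over all features tested, with a threshold of 0.05; at single times 2-fold differences were counted without a test. The fits of the treatment effect were checked on simulated data with known answers. Those data held no array that stood apart and no effect that changed with time, so the check does not cover these. The time block is the pairing of the arrays, taken from the titles; no replicate number pairs them otherwise.

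The members and lists were chosen with earlier results of these data known. Named are all members and, of each list, genes past the threshold and the 4 largest mean differences over 2, 6 and 12 h; for likeness the 3 highest r per member. RefSeq promoter windows covered 9 genes.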

Additional observations from a re-analysis of the deposited data

Results flagged for a closer look

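Within a treatment the 4 arrays are of different times, and 44 sets of 4 were examined for an array far from the rest; chance flags about 1 in 20 of such sets. The TNF-α array at 24 h was the one that stood apart in all 4 sets found. JAK2 read 5.02 on 11733373_at against 3.01 to 3.24 at the earlier times, and 5.72 on 11756857_a_at against 3.35 to 3.69. IFNLR1 read 5.70 against 4.79 to 4.91, and its BSA array of 24 h was also high (6.04). IL10RB read 4.71 on 11753111_x_at against 5.87 to 6.11. The array is the one with the GAPDH gap of 6.28, and its part in these values was not tested.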

How the results depend on the processing

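The call for IFNGR2 over 2, 6 and 12 h held after median centring, repeated quantile normalisation, removal of low probe sets, an intensity trend or array weights (adjusted p from 0.00191 to 0.0257). Fits of 2 pairs had 1 residual degree of freedom.

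Over the 4 times 2 probe sets were called. The count was 5 without low probe sets, 5 with an intensity trend and 32 with array weights, and 0 to 98 when the pair of 1 time was left out, with 0 to 1 of the 22 members among them. Limma called 0 at an adjusted p under 0.05 without 2, 6 or 12 h, where 2887, 1090 and 1185 had an unadjusted p under 0.05. With the pairs of 2, 6 and 12 h 98 were called, and 271 with an intensity trend. Without the replicate block (time) 6 were called and 0 members, with IFNGR2 at 1.52 (adjusted p = 0.0953). Leaving out 1 time gave 6 to 1624 and 0 to 10 members. The 10 came without the 2 h pair, where 3.59% of all probe sets were called: IFNGR2, 4 probe sets of IFNAR1, 2 of IFNGR1, 2 of IFNAR2 and 1 of JAK1. Averaging the probe sets of a gene, 1 gene passed over 4 times in place of 3, and 36 in place of 67 over 2, 6 and 12 h.

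None of the values that changed sign passed the threshold, and the cause was not tested. Over the 4 times, repeated quantile normalisation gave 0.070 for IFNAR1 11723423_x_at, −0.037 for JAK2 11733372_a_at, 0.025 for TYK2 11757379_a_at. In the same fit array weights gave 0.21 for JAK1 11717687_a_at, 0.42 for IFNAR1 11723423_x_at, 0.57 for IFNAR1 11748615_a_at, 0.072 for TYK2 11757379_a_at. Over the 4 times, leaving out 1 time gave JAK1 11717687_a_at −0.39 to 0.27, IFNAR1 11723423_x_at −0.29 to 0.49, JAK2 11733372_a_at −0.10 to 0.12, SOCS1 11737146_a_at −0.19 to 0.35, IFNGR1 11748152_a_at −0.21 to 0.97, IFNAR1 11748615_a_at −0.69 to 0.68, SOCS1 11754269_a_at −0.095 to 0.016, TYK2 11757379_a_at −0.15 to 0.10. With the pairs of 2, 6 and 12 h, repeated quantile normalisation gave 0.0025 for IL10RB 11753111_x_at. With the pairs of 2, 6 and 12 h, leaving out 1 time gave IL10RB 11727467_x_at −0.33 to 0.010, JAK2 11733373_at −0.038 to 0.096, SOCS1 11737146_a_at −0.48 to 0.27, IL10RB 11753111_x_at −0.083 to 0.074, SOCS1 11754269_a_at −0.13 to 0.037. For brightest probe sets over the 4 times, averaging probe sets gave 0.18 for IFNAR1. For the slope with time, repeated quantile normalisation gave 0.040 for IFNLR1 11730080_x_at. For the slope with time, leaving out the 24 h pair gave IFNGR2 11715532_a_at 0.15, JAK1 11717687_a_at 0.23, IFNAR1 11723423_x_at 0.16, IFNAR1 11723424_at 0.13, IL10RB 11727467_x_at 0.11, IFNGR1 11729406_a_at 0.26, JAK2 11733372_a_at 0.21, IFNGR1 11748152_a_at 0.40, IFNAR1 11748615_a_at 0.27, IFNAR2 11749121_a_at 0.22.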
